A study of Mus musculus with 4 samples.

Results

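The clustered replication-dependent histone genes were examined in poly(A) RNA of cultured mouse spermatogonia. Genes were taken by symbol, as all whose name starts with Hist1h, Hist2h, Hist3h or Hist4h, without the 1 entry named as a pseudogene (Hist3h2bb-ps). This gave 69 genes of 55421 in the count table, namely 6 H1, 20 H2A, 18 H2B, 12 H3 and 13 H4 genes. GENCODE release M21 (GRCm38) places 56 of them on chromosome 13 (Hist1), 10 on chromosome 3 (Hist2), 2 on chromosome 11 (Hist3) and 1 on chromosome 6 (Hist4). It annotates 67 as protein coding. The remaining pair, Hist1h2al and Hist1h2aj, are annotated as pseudogenes although their names do not say so, and Hist1h2al (chr13:51202727-51203065) lies far from the other chromosome 13 genes.

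All 4 libraries came from primary cultures of CD1 mouse spermatogonia, set up from testes of pups and grown on mitotically arrested embryonic fibroblast feeders, with N2 supplement, bFGF and GDNF. In the 2 Veh libraries the cells stayed in complete spermatogonial stem cell medium. In the 2 NRRA libraries they received nutrient restriction together with retinoic acid, the combination the study uses to bring cultured spermatogonia into meiosis. The study's nutrient restriction medium is mostly a balanced salt solution, so that N2, bFGF and GDNF were diluted with the rest of the medium. Every library holds RNA of germ cells and feeders, and in such bulk RNA fewer cells of a type and less RNA per cell cannot be told apart. The study describes its sequencing replicates as independent biological ones, while the labels do not give the culture behind each library, and p-values measure the spread between these libraries. That spread was small, with a common biological coefficient of variation of 2.61% in edgeR. Against counting error, the chi-square per degree of freedom between replicates was 2.45 in Veh and 1.99 in NRRA. Whether this equals the spread between separate cultures was not tested. The counts assigned to genes totalled between 28022265 and 31604769 per library, and a count of 3, used as a floor, was worth between 0.0921 and 0.111 CPM, the usual count per 1000000 counts of the library, on library sizes scaled by TMM. Floors cover counting error only.

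Replication-dependent histone genes supply the core histones H2A, H2B, H3 and H4 and the linker histone H1 while DNA is copied. They lie in clusters, mostly lack introns, and are transcribed in nuclear bodies organised by Npat. Their mRNAs are the known exception among mRNAs of animal cells: in place of a poly(A) tail they end shortly after a conserved stem-loop, which is bound by stem-loop binding protein (Slbp) and cut with the help of the U7 snRNP. Some of the genes also carry a poly(A) site further downstream and can give polyadenylated transcripts, mainly in cells that have left the cycle. Libraries made by oligo-dT capture, as here, therefore hold only part of these transcripts, and the levels below are of poly(A)-captured RNA and not of all histone mRNA.

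The stem-loop was looked for first, since it is the element that separates these mRNAs from others. A match to its 16-base pattern, of a first arm with GG, pyrimidines and a T, a mostly pyrimidine loop and a second arm with an A, purines and CC, was found in the GENCODE transcripts of 46 of the 69 genes. Of the 20 long single-exon genes, with more than 200 annotated bases after the stop codon, 19 had a match. Of the 42 short single-exon genes 25 had one, and 15 of the other 17 were annotated with fewer than 30 bases after the stop codon, so that the annotation may end before the element. The sequences that occurred are shown from 1 gene each, with the stem arms in capitals and the loop in lower case, written as DNA.
Hist1h1c: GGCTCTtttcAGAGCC
Hist1h1t: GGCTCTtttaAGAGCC
Hist2h2ac: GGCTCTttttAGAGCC
Hist1h3g: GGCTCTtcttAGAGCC
Hist1h4h: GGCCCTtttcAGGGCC
Hist1h4i: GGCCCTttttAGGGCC
Hist1h4a: GGCCCTtctcAGGGCC
Hist1h4b: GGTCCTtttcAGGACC

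The arms sorted by histone type. All matches of H1, H2A, H2B and H3 genes had the arms of Hist1h1c, and all 12 matches of H4 genes had one of the arms shown for Hist1h4h and Hist1h4b. The element of Hist1h1c (chr13:23739512-23739527, plus strand) also occurred in 10 H2A, 8 H2B and 5 H3 genes and, within H1, in Hist1h1d and Hist1h1e. In Hist1h1c it is followed by 840 annotated bases, in Hist1h1e by 1153 and in Hist1h1d by 4884. The H4 element shown for Hist1h4h (chr13:23531458-23531473, plus strand) occurred in 7 H4 genes and the one of Hist1h4i (chr13:22040966-22040981, minus strand) in 2.

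Promoters were compared for 62 members matched to RefSeq (GRCm38.p6), which gave 63 windows of 250 bases before to 50 after the start, with Hist1h2ao and Hist1h2ap matched to the same window. Both strands were searched, and none of the 3 motifs contains another. CCAAT, which NF-Y binds, was in all windows of H1, H2A, H2B and H3 genes but in 3 of 12 of H4 genes (25%), against 37.4% of all 32851 promoters. TATAAA was in 55.6% of the members' windows and 13.6% of all. The octamer ATTTGCAT, bound by Oct factors, was in 7 of 18 H2A windows (38.9%) and 7 of 17 H2B windows (41.2%), in none of the other members' windows and in 1.74% of all promoters. A match describes letters in a window and is no evidence of binding. H2A and H2B genes also shared upstream regions: 12 of the 18 protein-coding H2A genes lay head to head with an H2B gene, with 176 to 306 bases between the starts. The windows of such a pair overlap, and the same octamer can be counted for both genes. The H2A and H2B shares are therefore not separate counts of sites.

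The 150 bases before the start are shown for 3 genes, with the motifs in capitals on either strand. Hist1h1a (chr13:23763518-23763667, plus strand) and Hist1h1c (chr13:23738657-23738806, plus strand) are linker histone genes that were called in opposite directions below, and Hist1h2ae (chr13:23571221-23571370, minus strand) shares its upstream region with Hist1h2bg.
Hist1h1a: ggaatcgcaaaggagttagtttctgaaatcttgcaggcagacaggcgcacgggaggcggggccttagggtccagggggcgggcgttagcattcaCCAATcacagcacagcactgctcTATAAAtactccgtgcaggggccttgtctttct
Hist1h1c: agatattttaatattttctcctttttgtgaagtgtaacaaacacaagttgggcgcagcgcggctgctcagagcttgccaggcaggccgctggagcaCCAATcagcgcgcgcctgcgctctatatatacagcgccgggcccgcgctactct
Hist1h2ae: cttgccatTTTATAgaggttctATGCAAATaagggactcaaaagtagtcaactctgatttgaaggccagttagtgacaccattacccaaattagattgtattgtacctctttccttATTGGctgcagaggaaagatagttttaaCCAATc

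Hist1h1a and Hist1h1c each hold 1 CCAAT in these stretches, while TATAAA occurs only in that of Hist1h1a. In Hist1h2ae the octamer and the TATA motif stand in reverse, close to each other, at the end nearest to Hist1h2bg.

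The 69 genes were sparsely counted. Together they took between 0.0093% and 0.0105% of the counts of a library, or 108 and 98.4 CPM in Veh replicates 1 and 2 and 92.4 and 90.3 CPM in NRRA replicates 1 and 2. The 5 most counted genes (Hist1h2bc, Hist1h1c, Hist1h2al, Hist1h4i and Hist1h2be) held 65.3% of these counts, 31 genes had a mean count under 10, and 12 did not exceed 3 counts in any library. Hist2h2aa1 and Hist2h3c1 had 0 counts in all libraries. Both lie on the strand of longer predicted genes that cover 90.3% and 100% of their exons.

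**Figure D1:**
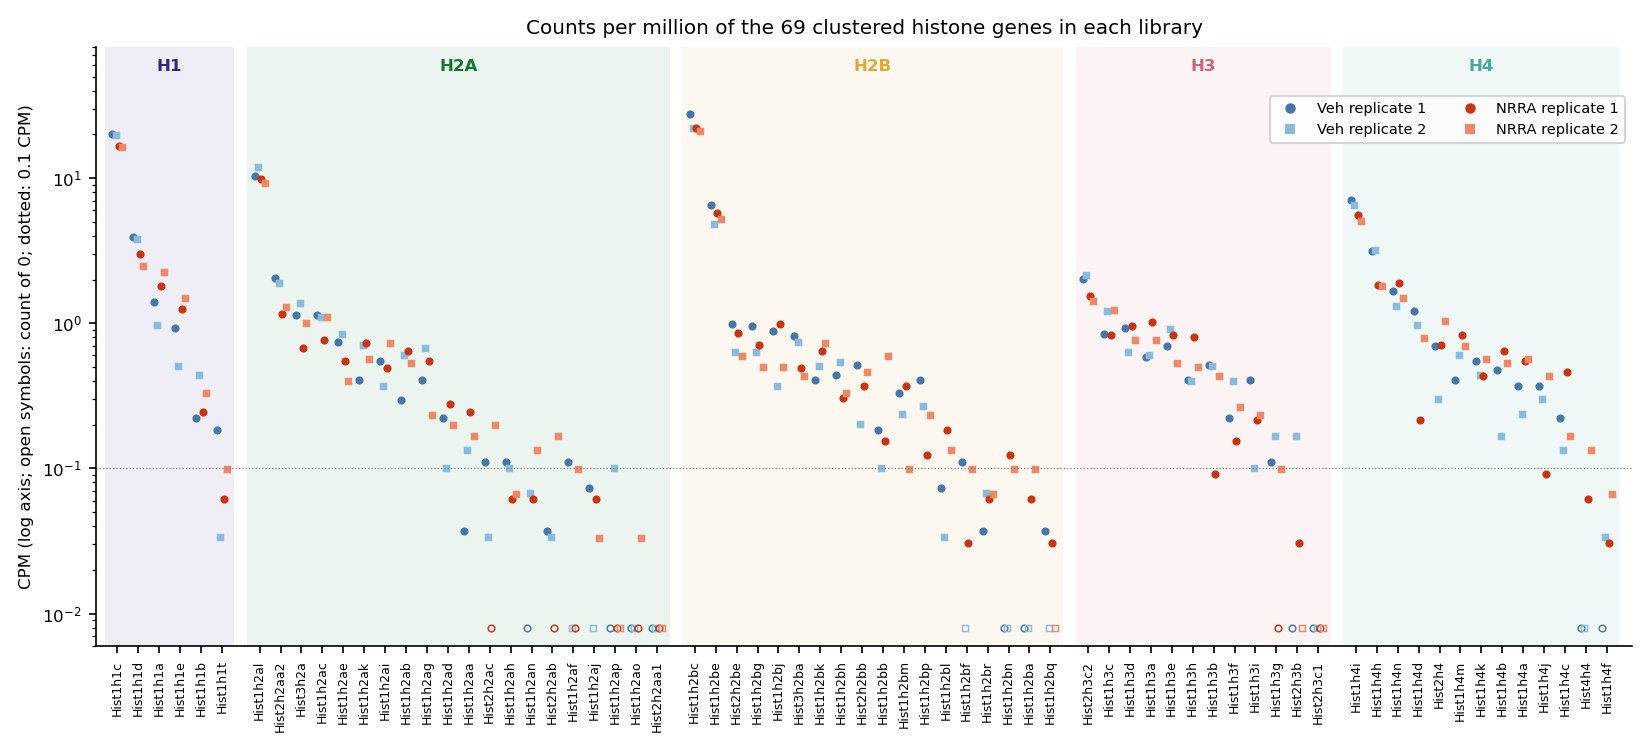
CPM (log axis) of the 69 clustered histone genes in the 4 libraries, grouped by histone type and ordered by mean within it, with counts of 0 as open symbols at the bottom and a dotted line at 0.1 CPM, close to a count of 3. Hist1h2bc, Hist1h1c and Hist1h2al lead, and most other genes lie at or below 1 CPM, where the libraries of a group spread widely; values are not scaled to gene length.

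Per kilobase of exon, Hist1h2al stood highest at 32.8 CPM per kb in Veh and 28.1 in NRRA, followed by Hist1h2bc (21.6 and 18.8), Hist1h1c (12.8 and 10.6), Hist1h4i (9.38 and 7.34) and Hist1h4h (6.77 and 3.87). The first 4 kept this order in each of the 4 libraries, while Hist1h4n stood above Hist1h4h in NRRA replicate 1 (4.43 against 3.92 CPM per kb) and in the NRRA mean (3.95 against 3.87). The first place of Hist1h2al is uncertain, because all of its 339 bases have near-identical stretches (at least 95% identity over at least 100 bases) in other genes, among them Hist2h2aa1 and Hist2h2aa2, and a predicted gene on the opposite strand within it, Gm44341, was counted at 221, 266, 257 and 210. Hist1h2bc, an H2B gene at chr13:23684199-23692908, is one of 5 members annotated with a spliced transcript, in which 742 bases follow the stop codon.

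Levels per kilobase were compared with the length of the annotated 3′ end. Exon length includes the bases after the stop codon, so dividing by it lowers the level of genes with long ends. The comparison therefore cannot tell whether levels follow the length of the 3′ end. Long single-exon genes had a median of 0.433 CPM per kb and short ones of 0.601, and 5 spliced genes one of 0.365. Across the 67 protein-coding genes, Spearman's rho between annotated bases after the stop codon and mean CPM per kb was -0.0484, and with the mean count, which grows with length, 0.344. These are descriptions over genes that share libraries and, in part, reads. As a share of counts, the 20 long single-exon genes held 39.3%, the 5 spliced genes 30%, the 42 short single-exon genes 20% and the 2 pseudogenes 10.7%. An AATAAA poly(A) signal within the last 50 bases of an annotated transcript was found in 15 members, which held 29.5% of the counts.

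**Figure D2:**
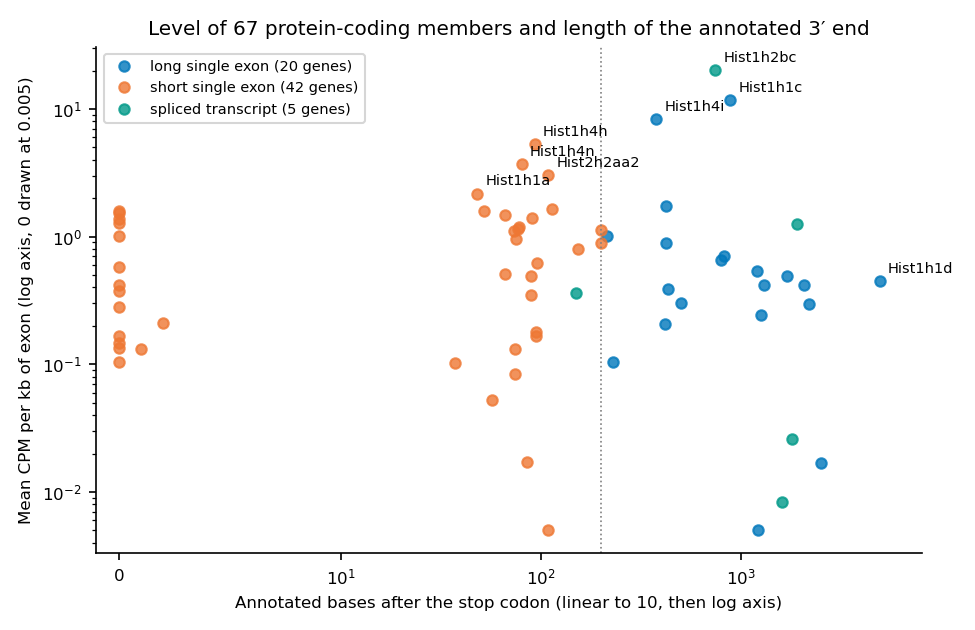
Mean CPM per kilobase of exon (log axis) against the annotated bases after the stop codon (linear to 10, then log) for 67 protein-coding members, coloured by the structure of the annotated transcript, with a dotted line at 200 bases. Short and long single-exon genes cover much the same range of levels, with medians of 0.601 and 0.433 CPM per kb. The exon length used includes the bases after the stop codon.

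The comparison of NRRA with Veh asks how these genes stood in cells pushed towards meiosis. In edgeR's quasi-likelihood test with Benjamini-Hochberg adjustment over 20232 genes, 40 members passed the filter on low counts and 29 did not. At an adjusted p under 0.05, 2 of the 40 were higher in NRRA (5.0%, against 27.9% of all genes tested) and 6 were lower (15.0%, against 28.4%), while 32 were not called. The higher genes were the linker histone genes Hist1h1a and Hist1h1e. The lower genes were the linker histone genes Hist1h1c and Hist1h1d, the H4 genes Hist1h4d, Hist1h4h and Hist1h4i, and the H2A gene Hist2h2aa2. The median log2 fold change of the 40 was -0.17, against 0.00029 over all genes. It was -0.28 at a mean CPM of at least 1, -0.083 with library size alone as scaling and, over more genes of few counts, -0.0068 without a filter and 0.0011 in DESeq2. When each NRRA library was set against each Veh library, on CPM with 0.1 added, the medians of the 4 pairs ran from -0.17 to -0.0099.

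Most members tested had few counts. Of the 40, 32 had a mean count under 50, with 2 called higher and 2 lower, while 12.5% and 14.2% of all 5036 genes in that range were called higher and lower. The 8 members with a mean count of 50 or more gave 0 called higher and 4 lower, with 33.1% of the 15196 genes in that range called in each direction, and 0 of these 8 members had an unadjusted p under 0.05 on the higher side in edgeR or DESeq2. The median standard error (SE) was 0.42 over the members and 0.10 over all genes. Both NRRA libraries lay above both Veh libraries in 9 members (38.1% of all genes tested) and below in 15 (38.6%). DESeq2 called 0 members at an adjusted p under 0.05, with 2 at an unadjusted p under 0.05, both lower. The share of all genes that DESeq2 called is not given beside this, so the count says nothing particular about the members. With library size alone as scaling, which moved the median of all genes by 0.0897, 2 members were called higher and 1 lower, and the calls over all genes went from 5654 higher and 5752 lower to 6962 and 4593.

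**Figure D3:**
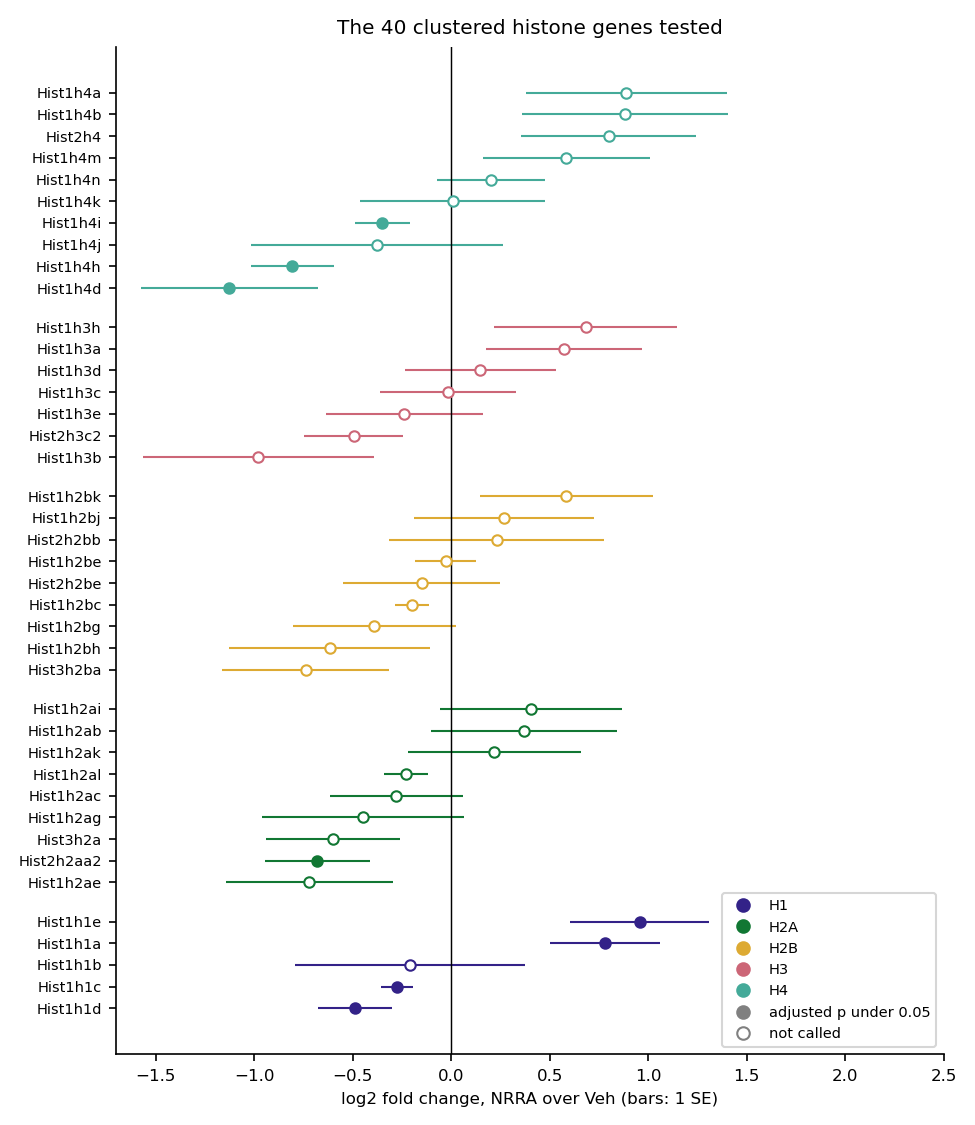
Log2 fold change of NRRA over Veh with 1 SE for the 40 members tested, coloured by histone type, with filled symbols for an adjusted p under 0.05. The 2 members called higher are H1 genes, the 6 called lower are 2 H1, 1 H2A and 3 H4 genes, and the open symbols spread from -0.98 to 0.89.

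The groups also differed in markers of cell types. Among germ cell markers, Dazl was higher (a call lost at a mean CPM of at least 1 and in DESeq2), Ddx4 was not called and the other 4 of 6 were lower, with a summed level of 1800 and 1880 CPM in Veh and 1440 and 1420 in NRRA. The fall was largest in Zbtb16 (441 and 443 CPM in Veh, 82.1 and 81.4 in NRRA) and Gfra1 (150 and 156, then 60.6 and 56.8), known as genes of undifferentiated spermatogonia, while Dazl was at 624 and 700 CPM in Veh and 749 and 728 in NRRA and Ddx4 between 268 and 278 in all libraries. The 8 fibroblast feeder markers summed to 9080 and 8980 CPM in Veh and to 7030 and 6890 in NRRA, with 6 lower and 1 higher. Sertoli markers (3 of 4 tested, 1 lower) summed to 34.7 and 38.9 CPM in Veh and 15.8 and 16.7 in NRRA, macrophage markers (3 tested, 1 lower) to 12.2 and 14.5 against 8.9 and 7.64, and Leydig markers (1 of 3 tested, higher) to between 7.15 and 9.04. Within the Sertoli list, Sox9 was at 27.1 and 29.4 CPM in Veh and 9.33 and 9.43 in NRRA and Wt1 between 5.8 and 7.83, while Dhh did not exceed 1.58 CPM and Amh 3 counts. The Leydig sum was nearly all Star, at 6.97 and 7.19 CPM in Veh and 8.78 and 8.77 in NRRA, whose call was lost in DESeq2 and whichever library was left out. Hsd3b1 had at most 1 count in a library and Cyp11a1 at most 10, and no marker was at 0 in all libraries. Any part of these shifts in the histone results below was not tested.

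Summed over each histone type, the ratio of NRRA to Veh lay between 0.853 and 0.906. The H1 genes summed to 26.8 and 25.5 CPM in Veh and to 23.0 in both NRRA libraries, a ratio of 0.879 ± 0.0259 (standard deviation, SD, over the 4 library pairs). For the H2A genes the sums were 17.7 and 20.1 against 16.1 and 16.1 CPM, a ratio of 0.853 ± 0.0618. H3 genes gave 6.75 and 7.26 against 6.45 and 6.24 CPM (0.906 ± 0.0418). In these 3 types and in H4, both NRRA libraries lay below both Veh libraries, as they did in 38.6% of all single genes tested. Hist1h1c held 74.0% of the H1 counts and Hist1h2al 58.9% of the H2A counts, so that these sums largely follow 1 gene each. H4 genes summed to 16.2 and 14.2 against 13.4 and 13.4 CPM (0.877 ± 0.0658). The H2B sums overlapped, at 40.4 and 31.3 CPM in Veh and 33.4 and 31.5 in NRRA (0.905 ± 0.139), and their ratio was 1.04 without Veh replicate 1. No test was run on the sums. With library size alone as scaling the H1 and H3 ratios were 0.935 and 0.964, and the H3 groups overlapped, at 0.000653% and 0.000703% of counts in Veh and 0.000664% and 0.000644% in NRRA. The H4 groups nearly met, at 0.00157% and 0.00138% of counts in Veh and 0.00138% in both NRRA libraries.

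**Figure D4:**
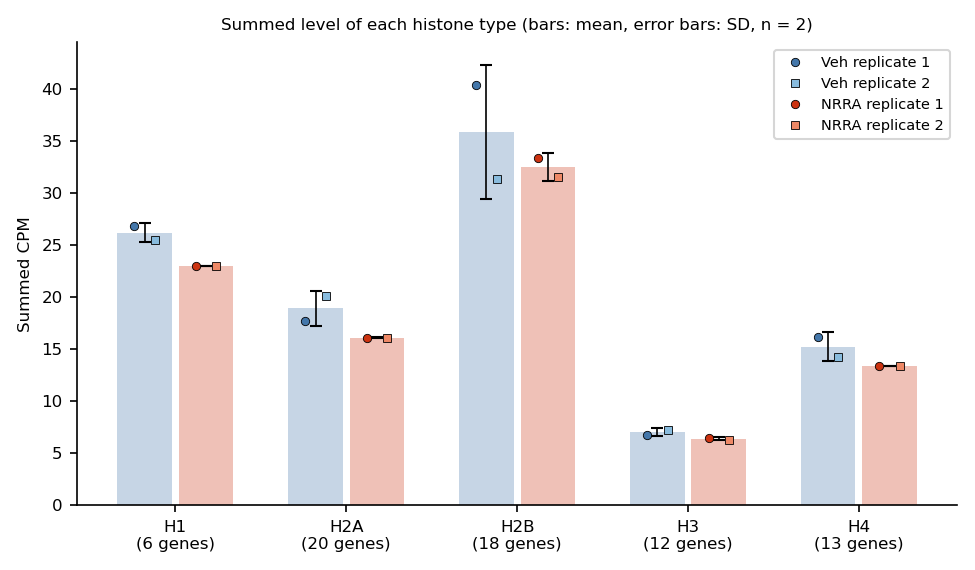
Summed CPM of each histone type in the 4 libraries (points), with the mean (bars) and SD (error bars, n = 2) of Veh and NRRA. The NRRA points lie below both Veh points in H1, H2A, H3 and H4, and the groups overlap in H2B.

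Linker histone H1 binds the DNA that enters and leaves the nucleosome. Of its 5 genes tested, 2 were called higher and 2 lower (27.9% and 28.4% of all genes tested), and both higher calls were lost without Veh replicate 2 or NRRA replicate 2. Hist1h1c (ENSMUSG00000036181, chr13:23738808-23740367, plus strand), the most counted of them with 74.0% of the H1 counts, had 20.2 and 19.7 CPM in Veh replicates 1 and 2 and 16.6 and 16.3 CPM in NRRA replicates 1 and 2. The libraries of a group lay close together and both NRRA libraries were lower. The log2 fold change was -0.28 ± 0.081 (SE, adjusted p = 0.0049 in edgeR). Hist1h1c has no near-identical copy and no overlapping gene. Its call was lost with library size alone as scaling and in DESeq2, and its adjusted p ranged from 0.00307 to 0.0858 over 11 alternatives.

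Hist1h1d (ENSMUSG00000052565, chr13:23553262-23560686, plus strand) was counted 106 and 114 times in Veh, against 98 and 75 in NRRA (3.91 and 3.83 against 3.01 and 2.49 CPM). It was lower in both NRRA libraries, with a log2 fold change of -0.49 ± 0.19 (edgeR adjusted p = 0.0287). Of 11 alternatives 5 lost the call, namely those without Veh replicate 1, Veh replicate 2 or NRRA replicate 2 (adjusted p of 0.0828, 0.055 and 0.192), with library size alone (0.0726) and in DESeq2 (0.224, in a range from 0.0225).

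Hist1h1a (ENSMUSG00000049539, chr13:23763666-23764406, plus strand) moved the other way, from 38 and 29 counts in Veh to 59 and 68 in NRRA, or 1.40 and 0.975 against 1.81 and 2.26 CPM. The groups did not overlap, and the log2 fold change was 0.78 ± 0.28 (edgeR adjusted p = 0.0198). Hist1h1e (ENSMUSG00000051627, chr13:23620629-23622558, minus strand), with 25 and 15 counts in Veh against 41 and 45 in NRRA, was likewise higher in both NRRA libraries (log2 fold change 0.96 ± 0.35, edgeR adjusted p = 0.0233). Of its exons, 25.7% overlap Hist1h2be on the same strand. The calls of both genes were lost without Veh replicate 2 (Hist1h1a 0.53 and Hist1h1e 0.57 in log2 fold change, with adjusted p of 0.173 and 0.255) and without NRRA replicate 2 (0.61 and 0.83, with adjusted p of 0.15 and 0.127), and in DESeq2 (adjusted p of 0.172 and 0.186). Over 11 alternatives the adjusted p ranged from 0.00805 to 0.173 for Hist1h1a and from 0.00477 to 0.255 for Hist1h1e.

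Per kilobase the order of the H1 genes was Hist1h1c, then Hist1h1a (1.6 CPM per kb in Veh and 2.75 in NRRA), with Hist1h1d (0.521 and 0.370), Hist1h1b (0.443 and 0.389) and Hist1h1e (0.369 and 0.713) together below. The last 3 did not stand apart in all libraries. Hist1h1d is annotated with 7425 exonic bases, 4931 of them after the stop codon, which lowers its level per kilobase. Its mean count of 98.25 stood above the 48.5 of Hist1h1a. Hist1h1b, at 6, 13, 8 and 10 counts, was not called (log2 fold change -0.21 ± 0.58, edgeR adjusted p = 0.79). Hist1h1t, the linker histone of spermatocytes, had 5 and 1 counts in Veh against 2 and 3 in NRRA and did not pass the filter, so that no difference was detectable at this depth.

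H2A and H2B form the dimers at the flanks of the nucleosome. Hist1h2al held 58.9% of the H2A counts, with 279 and 356 in Veh against 320 and 277 in NRRA, or 10.3 and 12 against 9.83 and 9.20 CPM. Its NRRA libraries were lower on the CPM scale but it was not called (log2 fold change -0.23 ± 0.11, edgeR adjusted p = 0.0861). Without Veh replicate 1 it passed, with -0.33 and an adjusted p of 0.0259 (range 0.0259 to 0.516 over 11 alternatives). Hist2h2aa2 (ENSMUSG00000063954, chr3:96239749-96240276, minus strand) had 56 counts in both Veh libraries against 38 and 39 in NRRA, or 2.07 and 1.88 against 1.17 and 1.30 CPM. It was the 1 H2A gene called of 9 tested (11.1% lower, against 28.4% of all genes tested), at -0.68 ± 0.27 (edgeR adjusted p = 0.0331).

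That call was lost whichever library was left out (adjusted p of 0.129 without Veh replicate 1, 0.0552 without Veh replicate 2, 0.15 without NRRA replicate 1 and 0.0646 without NRRA replicate 2), and also with library size alone (0.0632), without a filter (0.0517) and in DESeq2 (0.239), within a range of 0.0285 to 0.239 over 11 alternatives. All of Hist2h2aa2 has near-identical stretches elsewhere, and the predicted gene Gm20632 on its opposite strand was counted at 124, 123, 105 and 96. With the counts of Hist1h2al, Hist2h2aa1, Hist2h2aa2 and Hist2h2ac added up as 1 feature, the sum was lower in NRRA, at -0.28 (edgeR adjusted p = 0.0204).

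The other 8 H2A genes tested were not called. Their log2 fold changes lay between -0.72 for Hist1h2ae (0.737 and 0.840 CPM in Veh, 0.553 and 0.399 in NRRA, SE 0.42, edgeR adjusted p = 0.154) and 0.40 for Hist1h2ai (0.553 and 0.370 against 0.491 and 0.731 CPM, SE 0.46, edgeR adjusted p = 0.484). Hist3h2a, at 31 and 41 counts in Veh against 22 and 30 in NRRA, was at -0.60 ± 0.34 (edgeR adjusted p = 0.138). It shares 33.0% of its exons with Trim17 on the same strand, which was counted at 37, 27, 90 and 91. Summing the 13 near-identical Hist1 H2A genes as 1 feature gave -0.071 (edgeR adjusted p = 0.742).

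Hist1h2aa and Hist1h2ba encode the testis-specific H2A and H2B of spermatogenic cells and lie head to head, with 306 bases between their starts. Hist1h2aa had 1 and 4 counts in Veh against 8 and 5 in NRRA, and Hist1h2ba 0 and 0 against 2 and 3. Both stood higher in the NRRA libraries, but neither passed the filter, and Hist1h2ba did not exceed the floor in any library, so that no fold is given. Hist3h3, the testis-specific H3 gene, was not analysed here.

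None of the 9 H2B genes tested was called in edgeR, against 27.9% higher and 28.4% lower of all genes tested. An unadjusted p under 0.05 was found for 1 of them in edgeR and 0 in DESeq2. Hist1h2bc, with 68.2% of the H2B counts, had 753 and 660 in Veh against 722 and 640 in NRRA, or 27.8 and 22.2 against 22.2 and 21.3 CPM. Veh replicate 2 lay next to the NRRA libraries and Veh replicate 1 above them. The log2 fold change was -0.20 ± 0.086 (edgeR adjusted p = 0.0534), and it rested on 1 Veh library: without Veh replicate 2 it was -0.36 (adjusted p = 0.000249) and without Veh replicate 1 -0.03 (adjusted p = 0.813), the ends of its range over 11 alternatives. It also passed with the replicate block (adjusted p = 0.0219), without a filter (0.0392) and at a mean CPM of at least 1 (0.0372).

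Hist1h2be, at 176 and 143 counts in Veh against 188 and 158 in NRRA, gave -0.028 ± 0.16 (edgeR adjusted p = 0.897), and Hist2h2be, at 27, 19, 28 and 18 counts, gave -0.15 ± 0.40 (edgeR adjusted p = 0.78). In both genes the groups overlapped. The lowest H2B value was that of Hist3h2ba (22 and 22 against 16 and 13 counts, -0.74 ± 0.42, edgeR adjusted p = 0.145) and the highest that of Hist1h2bk (11 and 15 against 21 and 22 counts, 0.58 ± 0.44, edgeR adjusted p = 0.271). Added up as 1 feature, 14 near-identical Hist1 H2B genes with Hist1h1e gave -0.10 (edgeR adjusted p = 0.318).

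H3 and H4 form the tetramer at the centre of the nucleosome. None of the 7 H3 genes tested was called in edgeR, against 27.9% higher and 28.4% lower of all genes tested. An unadjusted p under 0.05 was found for 0 of them in either edgeR or DESeq2. Hist2h3c2, with 26.6% of the H3 counts, had 2.03 and 2.15 CPM in Veh and 1.54 and 1.43 in NRRA. The groups did not overlap, and the log2 fold change was -0.49 ± 0.25 (edgeR adjusted p = 0.0997). Hist1h3c overlapped at 0.848 and 1.21 against 0.829 and 1.23 CPM (-0.014 ± 0.35, edgeR adjusted p = 0.978), as did Hist1h3d at 0.922 and 0.639 against 0.952 and 0.764 (0.15 ± 0.38, edgeR adjusted p = 0.772).

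The extremes among H3 genes were Hist1h3b, at 14 and 15 counts in Veh against 3 and 13 in NRRA (-0.98 ± 0.58, edgeR adjusted p = 0.161), and Hist1h3h, at 11 and 12 against 26 and 15 (0.68 ± 0.47, edgeR adjusted p = 0.222). The low value of Hist1h3b came from NRRA replicate 1: without NRRA replicate 2 it was -2.42 and passed (adjusted p = 0.03, range 0.03 to 0.813 over 10 alternatives). All 12 H3 genes belong to 1 group of near-identical genes, whose summed counts of 183 and 216 in Veh against 210 and 188 in NRRA gave -0.14 (edgeR adjusted p = 0.378).

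Of 10 H4 genes tested, 3 were called lower (30%, against 28.4% of all genes tested) and 7 were not called. Hist1h4i (ENSMUSG00000060639, chr13:22040636-22041362, minus strand) held 42.4% of the H4 counts, with 192 and 195 in Veh against 182 and 153 in NRRA, or 7.08 and 6.55 against 5.59 and 5.08 CPM. Both NRRA libraries were lower, at -0.35 ± 0.14 (edgeR adjusted p = 0.0347). Of Hist1h4i, 29.8% has a near-identical stretch in the gene 4930558J22Rik, which was counted at 10, 3, 12 and 8. Of 11 alternatives 5 lost the call, namely those without Veh replicate 1 or NRRA replicate 2 (adjusted p of 0.158 and 0.182), with library size alone (0.115), without a filter (0.053) and in DESeq2 (0.242, in a range from 0.0277). Hist1h4h (ENSMUSG00000060981, chr13:23531050-23531519, plus strand) fell from 3.17 and 3.19 CPM in Veh to 1.84 and 1.79 in NRRA (86 and 95 against 60 and 54 counts).

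The libraries of each group nearly coincided in Hist1h4h, which had the lowest adjusted p of the members (log2 fold change -0.81 ± 0.21, edgeR adjusted p = 0.00202). Of 11 alternatives 10 kept that call, with DESeq2 as the exception (adjusted p = 0.0559, range 0.000988 to 0.0559). Near-identical stretches cover 67% of Hist1h4h, and summing it with 5 other H4 genes as 1 feature gave -0.17 (edgeR adjusted p = 0.327).

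Hist1h4d (ENSMUSG00000061482, chr13:23581598-23582735, plus strand), which has no near-identical copy, had 33 and 29 counts in Veh against 7 and 24 in NRRA, with NRRA replicate 1 far below the rest. The log2 fold change of -1.13 ± 0.45 (edgeR adjusted p = 0.0353) was the lowest of the members and rested on that library. It was -0.45 without NRRA replicate 1 (adjusted p = 0.459) and -2.32 without NRRA replicate 2, and the call was also lost without Veh replicate 1 (adjusted p = 0.122), with library size alone (0.0515) and in DESeq2 (0.217), within a range of 0.000847 to 0.459 over 10 alternatives. Hist1h4n overlapped at 1.66 and 1.31 against 1.9 and 1.5 CPM (0.20 ± 0.27, edgeR adjusted p = 0.557). Hist1h4a had the highest value, from 10 and 7 to 18 and 17 counts (0.89 ± 0.51, edgeR adjusted p = 0.143), and both NRRA libraries lay above both Veh libraries without passing the test.

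Shared sequence set a limit to the resolution of single genes. Near-identical stretches were found in 58 of the 69 members, covering at least 20% of the longest transcript in 57, and 23 members overlapped another gene over at least 20% of their exons. How reads that fit several genes, and the strand, were treated in the counting is not stated in the sources used here. Among the 7 tested members with little or no shared sequence, 1 was called higher (Hist1h1a) and 3 lower (Hist1h1c, Hist1h1d and Hist1h4d), at a median of -0.21. Adding up near-identical members left 17 features, with 1 called higher and 5 lower. Both counts stand beside 27.9% and 28.4% of all genes tested.

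The genes that make and handle histone mRNA were well counted in the same libraries. Of 21 genes for histone 3′ end processing, 6 were higher and 8 lower (median log2 fold change -0.073), beside 27.9% and 28.4% of all genes tested. Slbp, which binds the stem-loop, went from 132 and 137 CPM in Veh to 145 and 144 in NRRA (0.10 ± 0.034, edgeR adjusted p = 0.0108). Of 11 alternatives 3 lost that call (adjusted p of 2.07e-05 to 0.096), and 23.4% of its longest transcript has a near-identical stretch elsewhere. Cpsf3, the endonuclease that cuts histone pre-mRNA, had the lowest value, at 160 and 156 CPM in Veh and 122 and 121 in NRRA (-0.38 ± 0.034, edgeR adjusted p = 2.32e-10). Cstf3, which also serves cleavage of other pre-mRNAs, had the highest, at 0.38 ± 0.046 (edgeR adjusted p = 5.72e-08).

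Among 19 genes for histone gene transcription 12 were higher and 3 lower (median 0.13, or 0.22 with library size alone as scaling), beside 27.9% and 28.4% of all genes tested. Npat, which switches on these genes under cyclin E and Cdk2, was not called, at 146 and 140 CPM in Veh and 144 and 141 in NRRA (0.0033 ± 0.034, edgeR adjusted p = 0.946), and passed with library size alone as scaling (0.093, adjusted p = 0.0221). Ccne2, a cyclin E gene, was highest in the list, from 26.3 and 26.9 to 38.9 and 42.6 CPM (0.61 ± 0.065, edgeR adjusted p = 7.36e-09), and 20.4% of its longest transcript has a near-identical stretch elsewhere. Nfya, a subunit of the CCAAT-binding NF-Y, was lowest, from 96.1 and 92.5 to 62.1 and 65.5 CPM (-0.56 ± 0.044, edgeR adjusted p = 2.11e-11).

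Histone mRNA decay gave 5 higher and 3 lower of 13 genes (median -0.034, beside 27.9% and 28.4% of all genes tested), from Tut7, which adds uridines to histone mRNA ends, at -0.45 to the exonuclease gene Dis3l2 at 0.75. For Tut7, 26.1% of the longest transcript has a near-identical stretch elsewhere. Of 13 further genes of the polyadenylation machinery, 3 were higher and 5 lower, beside the same 27.9% and 28.4% (median -0.059, from Cstf1 at -0.29 to Papolg, a poly(A) polymerase gene, at 0.48). Histone chaperones gave 7 higher and 11 lower of 24 (median -0.051), again beside 27.9% and 28.4%. Chaf1b, a subunit of the chromatin assembly factor that loads H3 and H4 behind the fork, fell most, from 54.6 and 54.8 to 25.6 and 28.9 CPM (-1.01 ± 0.061, edgeR adjusted p = 1.6e-13), and Tonsl, which binds newly made H4, stood highest at 0.38. S phase genes were mixed, with 17 higher and 19 lower of 50 (median -0.034, against 27.9% higher and 28.4% lower of all genes tested), from Ung, which removes uracil from DNA, at -0.90 to Ccne2. With library size alone as scaling, the balance turned to 5 higher and 1 lower for the polyadenylation machinery (median 0.031), 12 and 10 for chaperones (0.039) and 20 and 12 for S phase (0.056). The counts of 3′ end processing (6 and 7) and decay (6 and 3) leaned as before, while their medians became 0.017 and 0.056.

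Replacement histone variants, most of whose mRNAs are polyadenylated and not confined to S phase, summed to 1330 and 1350 CPM in Veh and to 1160 in both NRRA libraries. Of 12 tested, 4 were higher and 7 lower (median -0.21, or -0.12 with library size alone as scaling), beside 27.9% and 28.4% of all genes tested. H2afy2, a macroH2A gene, had the lowest value, from 109 and 101 to 22 and 22.5 CPM (-2.23 ± 0.054, edgeR adjusted p = 5.08e-22), and 62.3% of its longest transcript has a near-identical stretch elsewhere. The linker histone variant gene H1fx had the highest, from 88.5 and 84.2 to 115 and 110 CPM (0.38 ± 0.040, edgeR adjusted p = 6.26e-09).

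**Figure D5:**
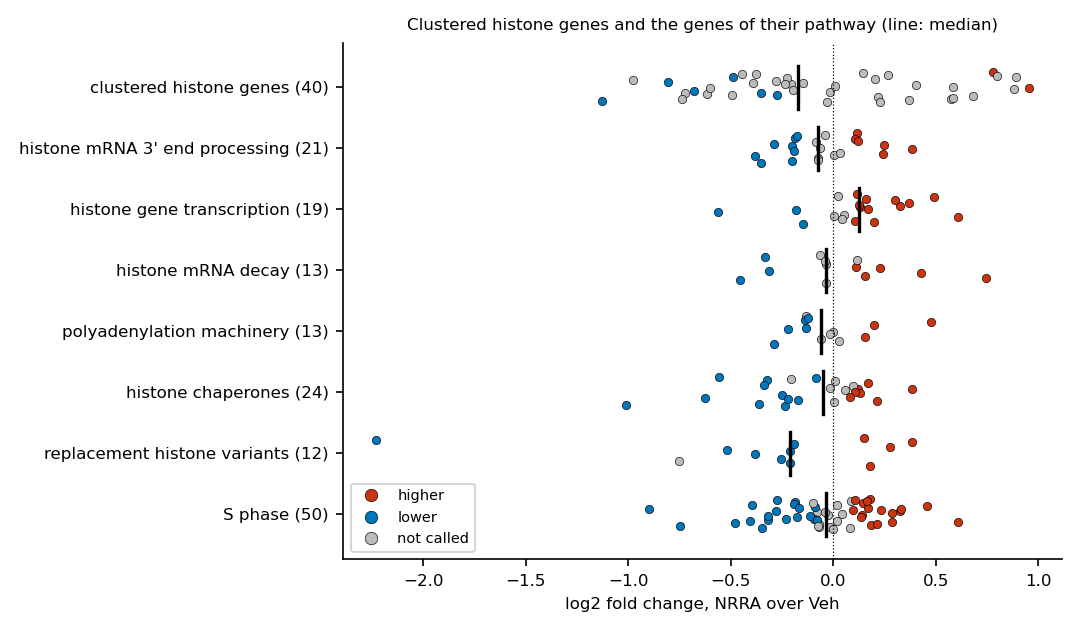
Log2 fold change of NRRA over Veh for the 40 clustered histone genes tested and for the genes of 7 companion lists, 1 point per gene, coloured by the call at an adjusted p under 0.05, with a line at the median. Medians lie between -0.21 for replacement variants and 0.13 for histone gene transcription, and the clustered genes spread on both sides of 0 with few calls.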

How the data were processed

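Poly(A) RNA of cultured CD1 mouse spermatogonia on feeders (4 libraries, 2 Veh and 2 NRRA) was captured on oligo-dT beads and sequenced in pairs on a NovaSeq. The labels and the study's methods name different library kits. The values deposited by the authors are raw counts of reads per gene, in 1 table. Per the labels, bcl2fastq, STAR 2.6.1c, featureCounts 1.6.4 and the mm10 build were used, and the annotation release, the strand setting and the handling of multi-mapped reads are not given in the sources used here. Columns were matched to samples by the sample descriptions.

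Counts were tested with edgeR 4.0.16 (R 4.3.3; filterByExpr, TMM, robust quasi-likelihood F test, Benjamini-Hochberg adjustment over all genes, threshold 0.05). The study's methods name DESeq2 for its own comparisons, and DESeq2 1.42.0 was run as an alternative because with 2 libraries a group the dispersion is itself poorly known, which the quasi-likelihood test allows for. Fits were tested on simulated data. CPM are counts over TMM-scaled library sizes (totals of 28022265 to 31604769), and SE were derived from the F statistic. Coordinates, stem-loops, overlaps and ends came from GENCODE M21, near-identical stretches from BLAST 2.17.0 and promoters from RefSeq. No protein sequences were used.

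Members and lists were chosen with earlier results of these data known. Full statistics were given, within each histone type, to the 3 genes with the highest mean CPM and those with the largest and smallest log2 fold change, to the testis-specific genes, to Hist1h1a to Hist1h1e and to members called, and, from the companion lists, to the extremes, Slbp and Npat. Called members outside the first rule were added after their values were seen. The companion lists were histone mRNA 3′ end processing, histone gene transcription, histone mRNA decay, polyadenylation machinery, histone chaperones, replacement histone variants and S phase, beside markers of germ cells, feeders, Sertoli, Leydig and macrophage cells. Alternatives were other scaling, filters and tests, a replicate block, each library left out, and members with shared sequence left out or summed.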

Additional observations from a re-analysis of the deposited data

How the results depend on the processing

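The counts of called members were 2 higher and 6 lower of 40 tested (5.0% and 15.0%, against 27.9% and 28.4% of all genes tested). They came to 2 and 6 with DESeq2 size factors, the stricter filter and the fit without robust estimation, to 2 and 5 without a filter, to 2 and 1 with library size alone, and to 0 and 0 in the DESeq2 Wald test. The share of all genes under each setting is not given beside these counts, which show only how the calls of members moved. With members of shared sequence left out they were 1 and 3, with members overlapping other genes left out 1 and 5, and with near-identical members summed 1 and 5. Leaving out 1 library gave between 0 and 3 higher and between 3 and 5 lower, with 0 higher without Veh replicate 2 or NRRA replicate 2 and 3 lower without Veh replicate 1. The median of -0.173 became -0.0833 with library size alone, -0.276 at a mean CPM of at least 1, -0.00675 without a filter and 0.00105 in DESeq2, the last 2 over more genes of few counts, and between -0.241 and -0.0582 with 1 library left out. With library size alone the H1 ratio was 0.935 and the H3 ratio 0.964. The 8 called members kept their call in 57 values over the alternatives and lost it in 30. Among the 17 other named members, 6 values gained a call and 12 changed sign. Signs changed for Hist1h2be (0.0618) and Hist1h3c (0.0755) with library size alone and for Hist1h3c in DESeq2 (0.00105), and with 1 library left out for Hist1h2be (-0.236 to 0.198), Hist2h2be (-0.443 to 0.195), Hist1h3c (-0.318 to 0.27), Hist1h3d (-0.101 to 0.427) and Hist1h1b (-0.596 to 0.00391). The cause was not tested. The replicate numbers of the titles are shared by the groups, but same-numbered deviations did not correlate (-0.0106 across genes), so that they pair nothing. With the replicate block the calls were 2 higher and 7 lower, the median was -0.164, and the added call was Hist1h2bc (adjusted p = 0.0219). Among the companion lists, histone gene transcription kept more genes higher than lower in all alternatives (9 to 15 higher, 1 to 3 lower), and replacement variants more lower (4 higher, 7 to 8 lower). S phase genes had more higher than lower with library size alone (20 and 12), without NRRA replicate 1 (16 and 14) and in DESeq2 (15 and 13), and the polyadenylation machinery and chaperones with library size alone. At a mean count under 50 the median SE was 0.439 for members and 0.432 for all genes tested, against 0.0698 for all genes of 50 or more, and depth limits what can be told there.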
